A study of Mus musculus with 40 samples.

Results

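Late pre-B cells of the bone marrow (fraction D of the Hardy scheme, FrD) were compared between 5 chimeric mice with mutant marrow and 5 with WT marrow. The comparison took the 10 FrD libraries, chosen by genotype and fraction letter in their titles, out of 40 libraries in the series. Donor marrow was either homozygous for P198A, a CRISPR/Cas9-made change at residue 198 of ZIP7, or wild type (WT). Lethally irradiated hosts carrying CD45.1 received it, and marrow was taken after 8 weeks. The mutant mice were numbers 4, 5, 8, 9 and 10, and the WT mice numbers 1, 2, 3, 6 and 7. The titles call the mutants KO, but the allele is a missense change, so the RNA level of its gene, Slc39a7, does not check the genotype. All mice of both groups were irradiated hosts, and only the transplanted cells differ in genotype. The FrD gate took B220+ CD43- CD45.2+ cells without CD45.1, IgM or IgD, which removes host cells by their CD45 allele. Each library was made from 100 sorted cells by Smart-seq2, a full-length, polyA-primed method with amplification by PCR. The sources used here give neither the strain background of the donors nor the age and sex of the mice. Each mouse number stands for a separate animal.

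ZIP7 releases zinc from the endoplasmic reticulum (ER) and Golgi into the cytosol. Late pre-B cells have stopped the divisions that follow a successful heavy chain, express the RAG recombinase to rearrange the light chain, and carry CD25, the IL-2 receptor alpha chain. They then become IgM-positive immature B cells, which take up survival signals from the cytokine BAFF through its receptor BAFF-R, encoded by Tnfrsf13c. Unfolded protein in the ER switches on chaperone genes through the factors ATF6 and XBP1. A separate branch, the integrated stress response, acts through the kinase PERK or related kinases and the factors ATF4 and CHOP on genes of amino acid synthesis, amino acid transport and tRNA charging.

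Totals ran from 6372181 to 43372070 endogenous counts per FrD library. The library of WT mouse 3 stood apart. It had the lowest total, and 26.7% of its detected genes had only 1 to 9 counts, against 4.98% to 13.9% in the other FrD libraries. It was the only FrD library above the 15% limit for low complexity, so each comparison was made with all 10 libraries and with the 9 that remain without it. The ratio of endogenous to spike-in (ERCC) counts, in log2 units, was 8.81 ± 0.34 in mutant and 8.41 ± 1.01 in WT libraries (SD, n = 5 each, exact two-sided permutation p = 0.452). Mutant libraries detected 11252 ± 278 genes and WT libraries 10705 ± 288 (SD, n = 5 each), with an exact two-sided permutation p of 0.0238 and a value of 0.0992 after adjustment over 5 measures. The smallest p that 5 against 5 libraries allow is 0.00794. Levels below are CPM, counts per 1000000 counts of a library whose total is scaled by its TMM factor, and each log2 fold change is mutant over WT with its standard error.

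RNA of B-lineage genes was present in every library, but it did not always exceed that of other cell types. The 10 B-lineage markers, with Cd79a, Pax5, Ebf1 and Blnk among them, all had counts in each of the 10 libraries. Their summed level was 12082 to 20634 CPM in mutant libraries and 17198 to 30987 CPM in WT libraries, and 23874 CPM or more in the 4 WT libraries other than that of mouse 3. In WT mouse 3 and mutant mice 8 and 9 it was below the sum of 22 granulocyte and monocyte markers. Those sums were 116021, 15410 and 23654 CPM, against 17198, 15236 and 12082 CPM for the B lineage. The late pre-B markers (Rag1, Rag2, Il2ra, Irf4, Ikzf3, Cd24a, Il7r) summed to 3442 to 5777 CPM in mutants and 4017 to 6398 CPM in WT. Most of each sum was Cd24a, also a B-lineage marker, at 2372 to 4145 CPM in mutants and 2899 to 4367 CPM in WT. WT mouse 3 had the lowest Rag2 and Il7r of all 10 libraries, at 14.6 and 130 CPM. The 11 T cell markers summed to 15.3 to 127.7 CPM in mutants and 2.92 to 83.1 CPM in WT, with Cd8a at 0 in all 10 libraries, Cd3e at 1 count in 1 mutant library and 0 in WT, and Lat at 8.01 to 26.0 CPM in mutants and 0.0412 to 5.77 CPM in WT. The 10 NK cell markers summed to 4.53 to 420 CPM in mutants and 0.432 to 194.8 CPM in WT. The 12 plasmacytoid dendritic cell markers, which include genes that B cells also express, summed to 615 to 2443 CPM in mutants and 2956 to 5697 CPM in WT. Much of that sum was 1 gene, Ly6d, at 342 to 1436 CPM in mutants and 2250 to 5466 CPM in WT. Of the 10 tested members 5 lay above 0, with a median log2 fold change of 0.11, so the gap in the sums does not describe the list. The 8 pro-B markers summed to 98.2 to 2895 CPM in mutants and 131 to 611 CPM in WT. Immunoglobulin and T cell receptor constant-region genes are not analysed here.

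RNA of myeloid cells was present in FrD and differed between the groups. The 22 granulocyte and monocyte markers summed to 16498, 11710, 15410, 23654 and 12317 CPM in mutant mice 4, 5, 8, 9 and 10, against 2639, 8849, 116021, 1538 and 79.6 CPM in WT mice 1, 2, 3, 6 and 7. WT mouse 3 was far above all others, and the remaining WT libraries were below every mutant library. Lyz2, lysozyme of monocytes and granulocytes, stood at 3024 to 20532 CPM in mutants, against 20.9 to 8227 CPM in WT. In WT mouse 3 the neutrophil genes S100a8 and S100a9 stood at 46392 and 37843 CPM, against 14.97 to 3565 and 7.13 to 2585 CPM in mutants. Erythroid markers reached 48344 CPM in WT mouse 3 and 10562 CPM in WT mouse 2, and were 1029 to 7734 CPM in mutants and 446 to 517.1 CPM in the other WT libraries. Basophil and mast cell markers summed to 7168 CPM in mutant mouse 8, and WT libraries reached 7.84 CPM at most. In sorted populations of 100 cells, fewer cells of a type and less RNA per cell cannot be told apart.

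**Figure D1:**
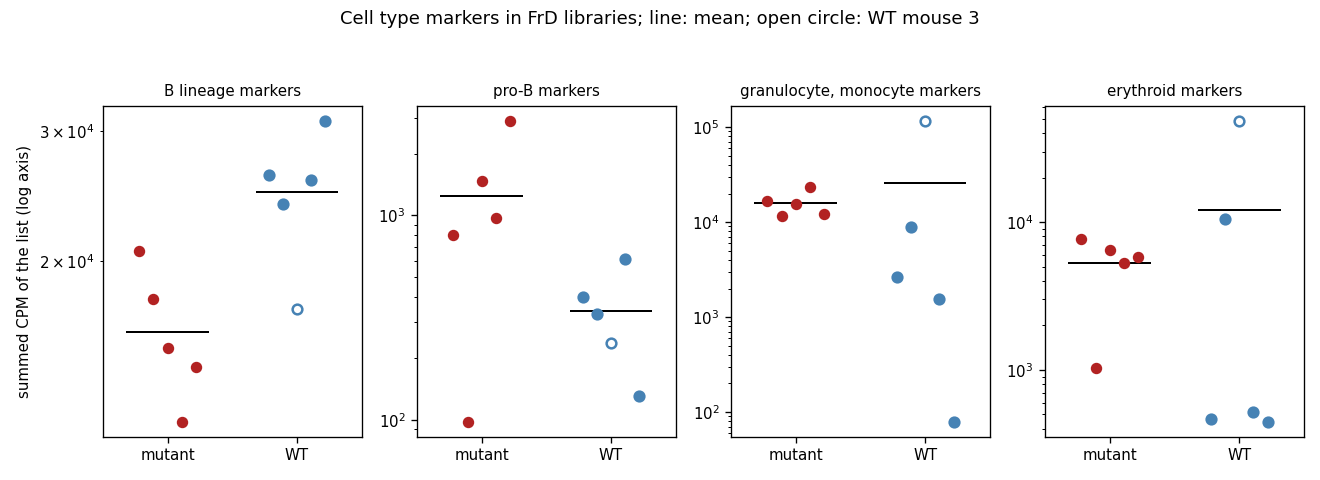
Summed CPM (log axis) of 4 marker lists in each FrD library, mutant left and WT right, with the mean as a line and WT mouse 3 as an open circle. Granulocyte and monocyte markers were 11710 to 23654 CPM in the mutants, above 4 WT libraries and below WT mouse 3 at 116021 CPM.

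The question of the comparison was which genes of late pre-B cells differ between mutant and WT marrow. Among 10043 genes tested on all 10 libraries, Tnfrsf13c fell in the mutants and no gene rose (edgeR quasi-likelihood test, Benjamini-Hochberg adjusted p under 0.05, 0.00996% of genes lower and 0.0% higher). An unadjusted p under 0.05 was reached by 530 genes, close to the 0.05 share of 10043 that no difference at all would give. DESeq2 called 204 genes higher and 82 lower, and limma-voom 3 and 8. Without the library of WT mouse 3, 11 genes rose (0.106% of 10371) and 28 fell (0.27%), Tnfrsf13c among them. These counts depended on single libraries. Leaving out a further library gave 4 calls without mutant mouse 8, 5 without mutant mouse 10 or WT mouse 1, 6 without WT mouse 7, 7 without WT mouse 6, 9 without mutant mouse 9, and 131 without mutant mouse 4. Nearer to the full count were 8 higher and 21 lower genes without mutant mouse 5, and 19 higher and 17 lower without WT mouse 2.

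**Figure D2:**
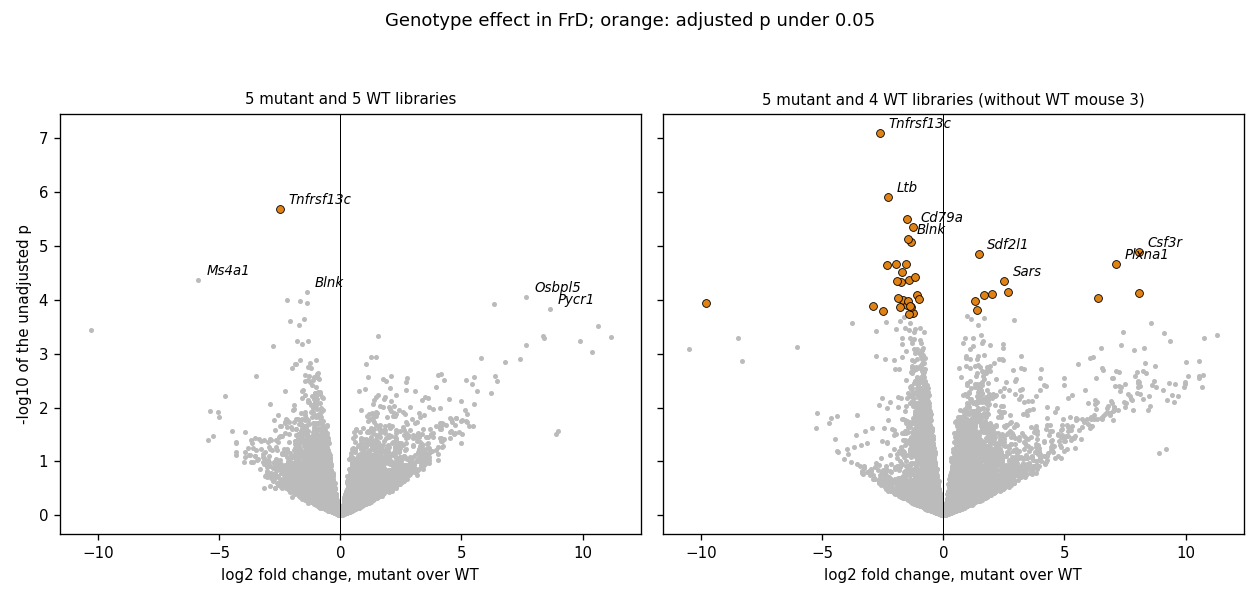
Log2 fold change (mutant over WT) against -log10 of the unadjusted p for each tested FrD gene, with all 10 libraries at left and without WT mouse 3 at right. Orange points passed an adjusted p of 0.05, 1 gene at left and 39 at right.

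Tnfrsf13c, the BAFF receptor gene (ENSMUSG00000068105, GRCm38 chromosome 15, 82221743 to 82224369, minus strand), was the gene of lowest p in both fits. Its level was 72.0, 38.5, 51.0, 66.1 and 45.2 CPM in mutant mice 4, 5, 8, 9 and 10, against 426, 344, 205, 312 and 246 CPM in WT mice 1, 2, 3, 6 and 7. The groups did not overlap, and the lowest WT value belonged to mouse 3. The log2 fold change was -2.49 ± 0.32 (SE, edgeR adjusted p = 0.0210), and -2.60 ± 0.26 (adjusted p = 0.000843) without WT mouse 3. The direction held in all 21 alternatives, but the adjusted p rose above 0.05 when any 1 of mutant mice 4, 5, 8, 9 and 10 or WT mice 1, 2 and 6 was left out (0.0531 to 0.172). It was also above 0.05 with the second sequencing index or the mouse number set (1 to 5 or 6 to 10) as a term (0.0556 and 0.0724), with all 40 libraries in one fit (0.0644) and with ERCC scaling (0.681). The granulocyte and monocyte sums given above also differed between the groups, and their part in this was not tested.

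Tnfrsf13c also had lower means in the mutants' other fractions, given here as CPM without TMM scaling. In FrB (pro-B cells) it was 25.6 ± 12.3 CPM in mutants and 244 ± 69.8 CPM in WT, and in FrC 37.7 ± 46.2 CPM in mutants and 163 ± 42.1 CPM in WT (SD, n = 5 each). In FrD it was 58.2 ± 13.4 CPM in mutants and 293 ± 107 CPM in WT, and in FrE (immature B cells) 489 ± 136 CPM in mutants and 1302 ± 559 CPM in WT (SD, n = 5 each). Of the mutant libraries, 4 of FrB, 3 of FrC and 1 of FrE were themselves of low complexity. The genotype effect on Tnfrsf13c in FrD minus that in FrE was -0.93 ± 0.42 log2 units (edgeR adjusted p = 0.635), and FrD minus FrC -1.01 ± 0.95 (adjusted p = 0.837).

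Parts and partners of the B cell receptor were next. Blnk, the adaptor that links the kinase SYK to calcium signalling, stood at 952, 505.7, 647, 583 and 747 CPM in mutant mice 4, 5, 8, 9 and 10, against 1929, 1679, 1391, 1658 and 2347 CPM in WT mice 1, 2, 3, 6 and 7. No mutant library reached the lowest WT library. Its log2 fold change was -1.39 ± 0.25 (edgeR adjusted p = 0.149) in all 10 libraries, and it fell by 1.46 (SE 0.22, adjusted p = 0.0144) without WT mouse 3. Cd79a, the receptor's signalling alpha chain, had 3266, 2165.6, 3075, 2541 and 2941 CPM in mutants, against 7010.4, 6691, 930.1, 5586 and 7952 CPM in WT. WT mouse 3 was below every mutant for this gene and the other WT libraries above. Its log2 fold change was -1.01 ± 0.42 (edgeR adjusted p = 0.908) with that library and -1.28 ± 0.18 (adjusted p = 0.0116) without it. Cd79b, the beta chain, averaged 3692 ± 1083 CPM in mutants and 5745 ± 1703 CPM in WT (SD, n = 5 each), with edgeR adjusted p = 0.922 and 0.130 without WT mouse 3. Over the 10 tested members of the receptor and pre-receptor list, the median log2 fold change was -0.42 in all 10 libraries and -0.53 without WT mouse 3, beside -0.07 and 0.06 over all tested genes.

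**Figure D3:**
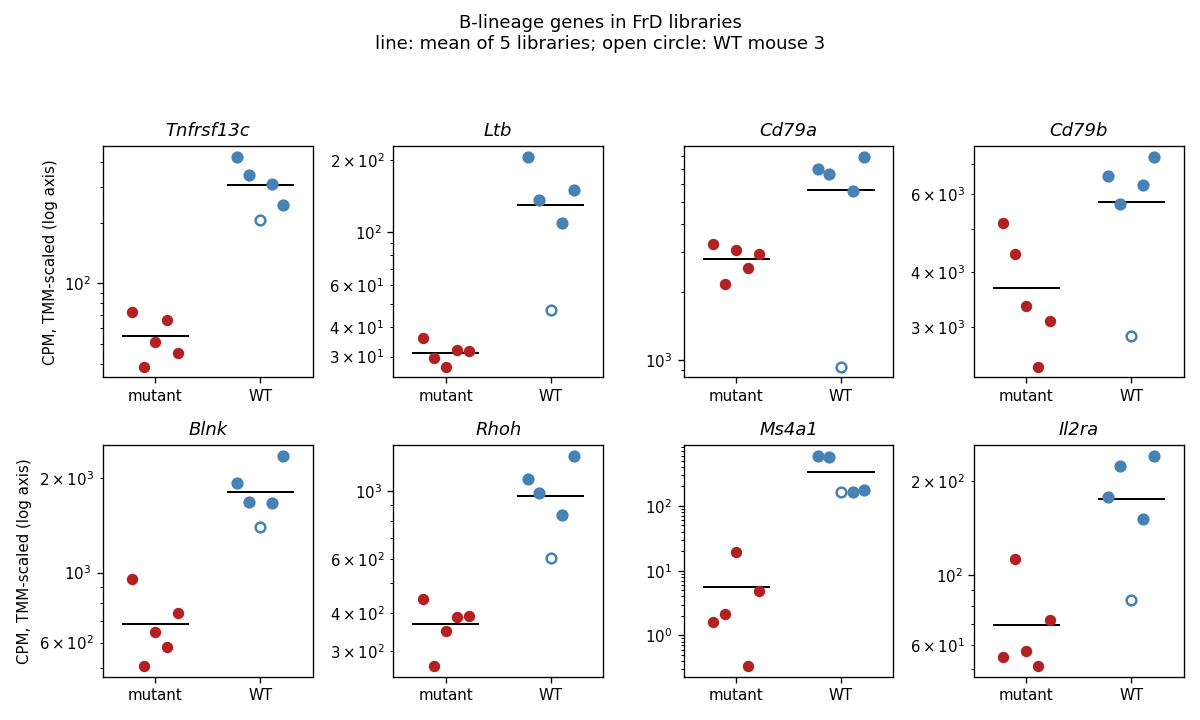
Level (CPM, log axis) of 8 B-lineage genes in each FrD library, mutant left and WT right, lines at the means, WT mouse 3 open. On this TMM-scaled level Tnfrsf13c, Ltb, Blnk, Rhoh and Ms4a1 did not overlap between the groups, while Cd79b did (2444.8 to 5169 CPM in mutants and 2875 to 7286 CPM in WT). Without TMM scaling, Ltb and Rhoh overlapped at WT mouse 3.

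Other genes also fell without WT mouse 3. Ltb, lymphotoxin beta of the TNF family, had 35.7, 29.5, 27.1, 31.8 and 31.5 CPM in mutants, against 207, 136, 47.0, 109 and 150.0 CPM in WT. Its mutant libraries were tightly grouped and, on this scale, all below WT. Without TMM scaling WT mouse 3, at 33.0 CPM, lay within the mutant range of 29.3 to 36.0 CPM. The Ltb log2 fold change was -2.06 ± 0.42 (edgeR adjusted p = 0.221), and -2.27 ± 0.29 (adjusted p = 0.00637) without WT mouse 3. Rhoh, a GTPase of blood cells, had 442, 268, 349, 386 and 389 CPM in mutants and 1096, 983, 604, 832 and 1305 CPM in WT. Its log2 fold change was -1.52 ± 0.21 (edgeR adjusted p = 0.0108) without WT mouse 3, and with that library the groups did not overlap in TMM-scaled CPM. Without TMM scaling they did, with mutants up to 445 CPM and WT mouse 3 at 423 CPM. Il2ra, which encodes CD25, had 54.7, 112, 57.2, 51.3 and 71.8 CPM in mutants and 178, 224, 83.3, 152 and 241 CPM in WT. Mutant mouse 5 overlapped WT mouse 3, and the log2 fold change was -1.34 ± 0.37 (edgeR adjusted p = 0.518) with and -1.51 ± 0.29 (adjusted p = 0.0403) without that WT library. Tcf12, which encodes the E protein HEB, and Ly6d, a surface marker of B-committed progenitors, fell without WT mouse 3 by 1.43 and 2.34 log2 units. Peli1, a ubiquitin ligase, and Dnajc7, a co-chaperone, fell by 1.56 and 1.73. In TMM-scaled CPM these 4 genes did not overlap between the groups in all 10 libraries, beside 0.906% of all genes with mutants wholly below WT. Without TMM scaling Tcf12 did overlap, with mutants up to 227 CPM and WT mouse 3 at 180 CPM. The 4 genes were picked among genes called on 9 of the same libraries, so the lack of overlap is no separate support. Ly6d is also on the plasmacytoid dendritic cell list, whose defining gene Siglech was at 0.111 to 307 CPM in mutants and 0.0443 to 315 CPM in WT. Cd38 and Bst1, related ectoenzymes, fell without WT mouse 3 by 1.74 and 1.94 log2 units. Arl5c, Stambpl1, Stk3 and Ptgr1 fell by 1.35, 1.18, 1.91 and 1.10 in the same fit. None of these was called in all 10 libraries by edgeR. In CPM without TMM scaling, WT mouse 3 was below every mutant library for Arl5c, Bst1, Stambpl1 and Stk3. It had 226, 5.34, 52.3 and 5.34 CPM, against at least 313, 29.3, 362 and 26.2 CPM in mutants. Of the other 12 lower genes, Fcmr, which encodes the Fc receptor for IgM, is given as a gene chosen after its values were seen, and it fell by 1.67 log2 units (SE 0.32, edgeR adjusted p = 0.0379) without WT mouse 3.

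Ms4a1, the gene of CD20, had the lowest log2 fold change of the tested immature B genes and did not pass the test. It had 1.63, 2.14, 19.3, 0.337 and 4.93 CPM in mutant mice 4, 5, 8, 9 and 10, against 596, 561, 163, 164 and 174 CPM in WT mice 1, 2, 3, 6 and 7. The groups were apart by a wide margin, but the values were spread within each. The log2 fold change was -5.87 ± 0.99 (edgeR adjusted p = 0.149), and -6.04 ± 1.18 (adjusted p = 0.0926) without WT mouse 3. Smoc1, a secreted matrix protein gene, had no count in any mutant library and 660 counts over the 5 WT libraries, which makes it at least 292-fold lower in mutants against a floor of 3 counts over the group. Its edgeR adjusted p was 0.255. Cd74, the class II invariant chain, averaged 759 ± 321 CPM in mutants and 2059 ± 1556 CPM in WT (SD, n = 5 each), with edgeR adjusted p = 0.861 and 0.0796 without WT mouse 3.

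Genes of immature and mature B cells as a list lay lower in the mutants. Of 33 tested members, 30 had a log2 fold change below 0, with a median of -0.85 beside -0.07 for all genes, and 0 members were called in all 10 libraries by edgeR. Without WT mouse 3 the median was -0.65 beside 0.06, and 3 of 33 fell by edgeR (Ltb, Cd38 and Fcmr), beside 0.27% of all tested genes. The mutants lay wholly below WT for 3 of 33 members in all 10 libraries, beside 0.906% of all genes, and for 10 of 33 without WT mouse 3, beside 3.22%. The 10 B-lineage markers moved with this list, with 0 of 10 above 0 and a median of -0.37 in all 10 libraries and -0.36 without WT mouse 3. The granulocyte and monocyte sums were higher in all mutants than in 4 WT libraries, and the part of either in this list was not tested. A list taken from WT libraries of other fractions gave a smaller shift. WT FrE against WT FrC gave 484 genes higher in FrE (4.68% of 10341) and 209 lower (2.02%). With the mouse as a replicate block it gave 276 and 155, and without low-complexity libraries 928 and 698. The 473 of the higher genes that were tested in FrD had a median log2 fold change of -0.33, and the 179 of the lower genes one of 0.03. These libraries came from the same WT mice as WT FrD, but from other sorted cells.

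Of the 7 late pre-B marker genes, edgeR called 0 in all 10 libraries and Il2ra without WT mouse 3. DESeq2 called Il2ra in all 10 libraries too (adjusted p = 0.0107), and Il2ra and Rag1 without WT mouse 3 (adjusted p = 0.000132 and 0.0497). Rag1, a part of the recombinase, stood at 79.6, 180, 99.9, 112 and 199 CPM in mutants. In WT it stood at 226, 346, 326, 202 and 302 CPM. The groups were just apart on this scale, beside 0.906% of all genes with mutants wholly below WT. Without TMM scaling they overlapped, with mutants up to 228 CPM and WT down to 205 CPM. The Rag1 log2 fold change of -1.06 ± 0.32 did not pass the test (edgeR adjusted p = 0.655, and 0.175 without WT mouse 3). Rag2 averaged 178 ± 72.5 CPM in mutants and 263 ± 140 CPM in WT (SD, n = 5 each), and 325 ± 22.2 CPM in the 4 WT libraries other than mouse 3, which had 14.6 CPM (edgeR adjusted p = 0.985 with and 0.228 without it). Il7r, the IL-7 receptor alpha chain, overlapped between the groups, at 305 to 704.7 CPM in mutants and 130 to 901 CPM in WT. Irf4 and Ikzf3, factors that end pre-B proliferation, averaged 451 ± 161 and 95.2 ± 20.7 CPM in mutants against 365 ± 33.8 and 60.0 ± 27.9 CPM in WT (SD, n = 5 each). Their log2 fold changes of 0.31 ± 0.26 and 0.66 ± 0.40 did not pass the test. Foxo1, which drives Rag expression, gave -0.21 ± 0.38.

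Earlier-stage genes were uneven among the mutants. Igll1, the lambda5 part of the surrogate light chain, had 432, 2.33, 828, 475 and 1269.6 CPM in mutant mice 4, 5, 8, 9 and 10, against 268, 150.3, 8.96, 269 and 22.9 CPM in WT. Vpreb1, its partner, had 241, 11.1, 439, 293 and 961 CPM in mutants and 96.5, 55.7, 47.5, 177 and 38.5 CPM in WT. For both genes 4 mutant libraries were above every WT library and mutant mouse 5 was below every WT library. The log2 fold changes were 2.06 ± 1.09 and 2.23 ± 0.78, with edgeR adjusted p of 0.931 and 0.838. Spn, which encodes the CD43 excluded by the gate, was 13.4 to 40.5 CPM in mutants and 5.89 to 144 CPM in WT, the highest being WT mouse 3. Of 19 V(D)J recombination genes, 14 lay below 0 in all 10 libraries with a median of -0.46, and none was called in either fit.

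Stress-response genes lay higher in the mutants. The ATF4 and CHOP list had 34 of 35 tested members above 0 with a median log2 fold change of 0.86, beside 45.7% of all genes above 0 and a median of -0.07. Without WT mouse 3 it had 35 of 37 above 0 with a median of 1.07, beside 53.3% and 0.06, and Sars rose. With ERCC scaling, taken relative to the median gene, 33 of 35 were above 0 in all 10 libraries, with a median of 0.90. Taking it so removes the ERCC shift of the median gene (0.39), so it is no separate check of the direction. The mutants lay wholly above WT for 5 of 35 members in all 10 libraries, beside 1.3% of all genes, and for 10 of 37 without WT mouse 3, beside 2.78%. The granulocyte and monocyte sums given above also differed between the groups, and their part in this was not tested.

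Promoters of a few stress genes are shown, chosen from those whose letters hold the elements by which these pathways are recognised. They are RefSeq promoters on build GRCm38.p6, 250 bases before to 50 after the start, 5′ to 3′ on the gene's strand. The first 3 have in capitals the C/EBP-ATF composite element TGATGNAA, the kind of site bound by ATF4 or CHOP with a C/EBP partner, which in Trib3 is on the opposite strand. They are Pycr1 (chr11:120643699-120643998, minus strand), Asns (chr6:7693160-7693459, minus strand) and Trib3 (chr2:152344011-152344310, minus strand).
Pycr1: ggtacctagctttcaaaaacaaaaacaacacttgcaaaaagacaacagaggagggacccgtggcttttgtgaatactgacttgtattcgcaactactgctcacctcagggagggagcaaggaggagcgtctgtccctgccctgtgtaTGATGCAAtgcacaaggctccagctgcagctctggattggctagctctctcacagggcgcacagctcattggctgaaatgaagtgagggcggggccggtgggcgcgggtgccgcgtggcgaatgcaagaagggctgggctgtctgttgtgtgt
Asns: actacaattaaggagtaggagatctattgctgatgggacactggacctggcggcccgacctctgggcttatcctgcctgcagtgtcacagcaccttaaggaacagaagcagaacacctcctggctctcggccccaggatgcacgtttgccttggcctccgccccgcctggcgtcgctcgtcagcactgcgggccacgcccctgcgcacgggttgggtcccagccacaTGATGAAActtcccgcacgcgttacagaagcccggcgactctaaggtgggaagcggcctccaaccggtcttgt
Trib3: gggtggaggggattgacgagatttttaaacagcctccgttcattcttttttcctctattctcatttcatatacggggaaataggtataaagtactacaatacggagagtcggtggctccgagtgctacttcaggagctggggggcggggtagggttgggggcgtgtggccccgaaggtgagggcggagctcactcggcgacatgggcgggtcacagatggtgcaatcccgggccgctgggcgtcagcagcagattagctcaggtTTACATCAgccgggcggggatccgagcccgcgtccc
The other 2 have in capitals the ER stress response element, CCAAT and CCACG with 9 bases between, bound by NF-Y and ATF6 or XBP1, which in Creld2 is on the opposite strand. They are Hspa5 (chr2:34771840-34772139, plus strand) and Creld2 (chr15:88819396-88819695, plus strand).
Hspa5: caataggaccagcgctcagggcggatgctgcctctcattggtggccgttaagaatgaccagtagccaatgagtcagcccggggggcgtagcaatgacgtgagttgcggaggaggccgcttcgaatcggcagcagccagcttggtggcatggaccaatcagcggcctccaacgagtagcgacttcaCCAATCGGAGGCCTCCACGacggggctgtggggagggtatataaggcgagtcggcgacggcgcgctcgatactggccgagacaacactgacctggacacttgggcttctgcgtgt
Creld2: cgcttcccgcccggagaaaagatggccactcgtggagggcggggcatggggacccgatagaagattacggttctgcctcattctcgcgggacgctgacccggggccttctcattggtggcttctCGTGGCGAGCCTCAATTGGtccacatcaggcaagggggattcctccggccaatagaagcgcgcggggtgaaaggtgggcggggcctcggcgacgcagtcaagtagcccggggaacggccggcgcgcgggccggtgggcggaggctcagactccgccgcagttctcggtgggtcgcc

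Both strands of every RefSeq promoter of the same length were searched for these letters. TGATGNAA was in 3.97% of 32851 promoters, or 4.51% of 27025 genes counted by any of their promoters, and in 13 of the 35 genes of the ATF4 and CHOP list that had an entry. The ER stress response element was in 0.137% of genes, in 6 of 14 ER chaperone genes, among them Calr, Canx, Dnajc3 and Hsp90b1, and in 0 of 35 of the ATF4 and CHOP genes. Neither was found in the promoter windows of Sdf2l1, Sars, Shmt2, Ddit3 or Tnfrsf13c. A match describes letters only.

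Ddit3, which encodes CHOP, had 184, 274, 76.9, 80.7 and 85.1 CPM in mutant mice 4, 5, 8, 9 and 10, against 76.2, 31.3, 23.7, 39.4 and 36.4 CPM in WT mice 1, 2, 3, 6 and 7. Every mutant library was above every WT library, with mice 4 and 5 highest and the lowest mutant just above WT mouse 1. The log2 fold change was 1.76 ± 0.48 (edgeR adjusted p = 0.518), and 1.62 ± 0.45 (adjusted p = 0.143) without WT mouse 3. Atf4, whose product is controlled mainly at translation, averaged 480.3 ± 114 CPM in mutants and 352 ± 61.3 CPM in WT (SD, n = 5 each, log2 fold change 0.45 ± 0.24, edgeR adjusted p = 0.931).

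Amino acid and tRNA-charging genes of the same response followed. Sars, which charges tRNA with serine, had 50.9, 208, 147, 191 and 112 CPM in mutants, against 14.9, 18.1, 99.9, 28.9 and 38.1 CPM in WT. Only WT mouse 3 overlapped the mutants. Its fitted difference was 1.83 ± 0.57 (edgeR adjusted p = 0.682) with and 2.51 ± 0.44 (adjusted p = 0.0272) without it. Shmt2, the mitochondrial serine to glycine enzyme, had 56.4, 93.2, 105, 198 and 131 CPM in mutants and 6.47, 12.1, 75.0, 4.83 and 38.6 CPM in WT. Again WT mouse 3 was the only overlap, and the adjusted p was 0.825 with and 0.0560 without it (edgeR). Pycr1, a proline synthesis enzyme, had 18.5, 4.67, 30.4, 3.21 and 17.3 CPM in mutants and 0, 0, 0, 0.0975 and 0.0443 CPM in WT. That was 1799 counts over the mutant libraries and 3 over WT, with edgeR adjusted p = 0.162. Trib3, a pseudokinase induced by CHOP, had 754 counts over the mutants, in all 5 libraries, and 1 over WT. It was too low for the all-library filter, and its edgeR adjusted p without WT mouse 3 was 0.164.

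Asns, asparagine synthetase, shows how far WT mouse 3 sets a result. It had 46.3, 23.1, 48.4, 30.6 and 17.7 CPM in mutants, against 0, 0.0480, 139, 13.0 and 0.0443 CPM in WT. All mutants were above the 4 WT libraries other than mouse 3 and below that one. Its fitted difference was 0.13 ± 1.60 with WT mouse 3 and 3.36 ± 1.53 without it, with edgeR adjusted p of 0.998 and 0.396.

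ER chaperone genes lay higher as well. Of 17 tested members, 14 were above 0 with a median log2 fold change of 0.42, beside 45.7% and -0.07 for all genes, and without WT mouse 3 it was 15 of 17 with 0.62, beside 53.3% and 0.06. The mutants lay wholly above WT for 4 of 17 members in all 10 libraries, beside 1.3% of all genes, and for 8 of 17 without WT mouse 3, beside 2.78%. The granulocyte and monocyte sums differed between the groups as well, and their part in this list was not tested. Hspa5, which encodes the chaperone BiP, had 711, 576, 713, 975 and 655 CPM in mutant mice 4, 5, 8, 9 and 10, against 277, 477, 453, 251 and 305 CPM in WT mice 1, 2, 3, 6 and 7. The lowest mutant was above the highest WT library. Its log2 fold change was 1.04 ± 0.26 (edgeR adjusted p = 0.438), and 1.15 ± 0.24 (adjusted p = 0.0556) without WT mouse 3. Sdf2l1, an ER co-factor of BiP, had 173, 168, 216, 218 and 180.3 CPM in mutants and 74.0, 74.2, 2.91, 64.9 and 67.0 CPM in WT. Its libraries were close together within each group apart from WT mouse 3. It gave a log2 fold change of 1.75 ± 0.58 (edgeR adjusted p = 0.777), and it rose by 1.45 ± 0.23 (adjusted p = 0.0181) without WT mouse 3. Creld2 and Manf, both secreted or ER-resident stress genes, averaged 132 ± 51.6 and 429 ± 105 CPM in mutants against 52.6 ± 21.4 and 185 ± 91.3 CPM in WT (SD, n = 5 each). Their groups did not overlap, and edgeR adjusted p values were 0.757 and 0.865. Xbp1, a factor of the unfolded protein response, gave 0.61 ± 0.26 log2 units with overlapping groups (edgeR adjusted p = 0.914).

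**Figure D4:**
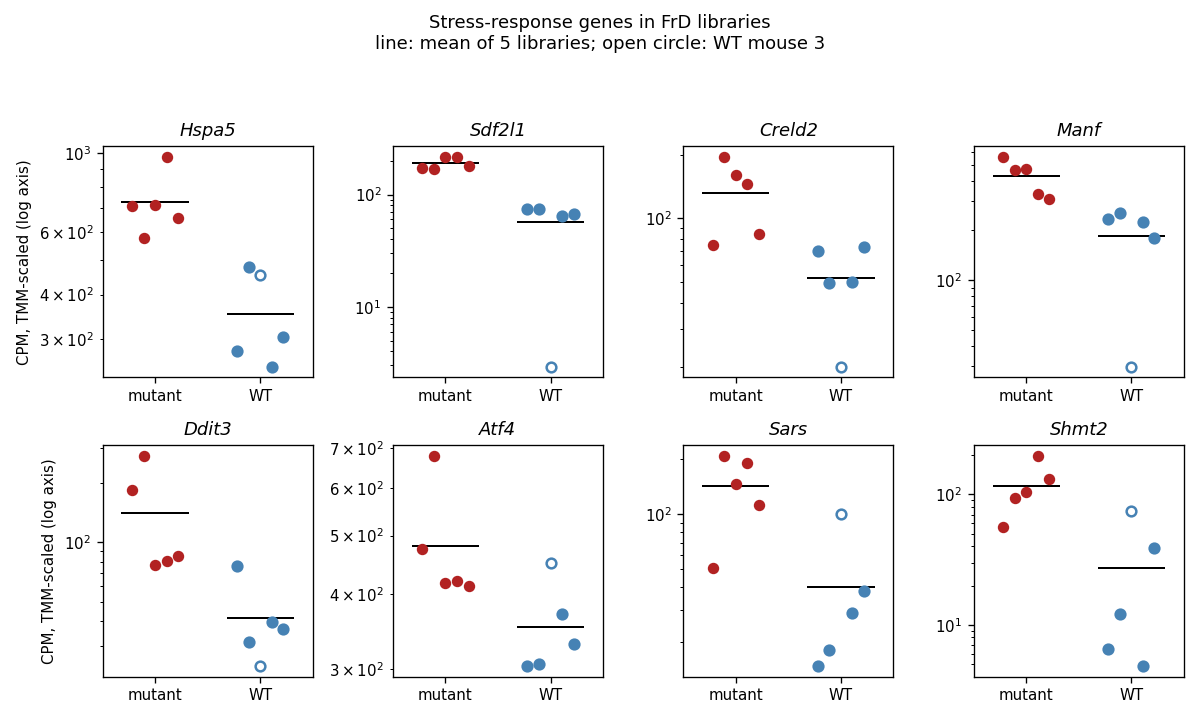
Level (CPM, log axis) of 8 stress genes in each FrD library, mutant left and WT right, lines at the means, WT mouse 3 open. Hspa5, Sdf2l1, Creld2, Manf and Ddit3 did not overlap between the groups, while Sars and Shmt2 overlapped at WT mouse 3.

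Other ER lists had smaller medians. ER-associated degradation genes had 16 of 22 members above 0 (median 0.39) and 18 of 22 without WT mouse 3 (median 0.48), with no call. Protein disulfide isomerases had 10 of 18 and a median of 0.14, and 9 of 18 and 0.04 without WT mouse 3. ER translocation and glycosylation genes had a median of 0.28 and 0.15, and Rpn1, a subunit of the oligosaccharyl transferase, rose by 1.37 ± 0.27 without WT mouse 3 (edgeR adjusted p = 0.0444). In all 10 libraries Rpn1 gave -0.10 ± 0.65, with WT mouse 3 at 875 CPM beside 147 to 306 CPM in mutants and 71.4 to 116 CPM in the other WT libraries.

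The remaining genes that rose without WT mouse 3 were of other kinds. Csf3r, the G-CSF receptor of granulocytes and itself one of the myeloid markers, had 12.8, 52.1, 42.1, 84.0 and 6.90 CPM in mutants, against 0.412, 0, 28.2, 0.0487 and 0.0886 CPM in WT (edgeR adjusted p = 0.0181). Its WT mouse 3 value lay among the mutants. Plxna1, a semaphorin receptor, had 32.7, 9.40, 28.0, 25.7 and 18.0 CPM in mutants and 0.289, 0.0961, 0.896, 0.195 and 0.0443 CPM in WT. Osbpl5, a lipid transfer protein gene, had 17.8, 19.5, 9.74, 21.1 and 17.1 CPM in mutants and at most 0.224 CPM in WT. Unlike Csf3r, both were near 0 in WT mouse 3 as well as in the other WT libraries, and their edgeR adjusted p values were 0.149 each in all 10 libraries, and 0.0198 and 0.0373 without it. Ano6, a phospholipid scramblase, had 111 to 155 CPM in mutants and 26.8 to 67.4 CPM in WT, a log2 fold change of 1.66 ± 0.31 without WT mouse 3 (edgeR adjusted p = 0.0373). Rapgef1, Flna and Xdh rose by 2.65, 2.01 and 6.39 log2 units without WT mouse 3, where the WT mouse 3 values of 30.7, 859 and 14.6 CPM were the highest of the WT libraries. All 18 tested granulocyte and monocyte markers also lay above 0 without WT mouse 3, with a median of 6.72, while 9 of 18 did with it, with a median of 0.01. The part of these markers in the calls was not tested.

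Cell cycle genes gave no common direction, as the G2/M list lay lower in the mutants and the G1/S list did not. Mcm3, part of the replication helicase, had 214 to 289 CPM in mutants and 73.5 to 284 CPM in WT, and rose by 1.29 ± 0.25 without WT mouse 3 (edgeR adjusted p = 0.0379). G1/S genes had 25 of 47 members above 0 (median 0.08), and 31 of 47 without WT mouse 3 (median 0.34). G2/M genes had 10 of 48 above 0 (median -0.37), and 15 of 48 without WT mouse 3 (median -0.34), and no member was called. Of all tested genes 45.7% lay above 0 (median -0.07), and 53.3% without WT mouse 3 (median 0.06). Mki67, the Ki-67 gene, averaged 583 ± 193 CPM in mutants and 895 ± 1131 CPM in WT, where mouse 3 had 2916 CPM. Ccnd2 and Ccnd3, D-type cyclin genes, averaged 134 ± 108 and 668 ± 421 CPM in mutants against 37.7 ± 49.3 and 498 ± 82.3 CPM in WT, and Myc averaged 20.5 ± 9.62 CPM in mutants and 4.24 ± 6.37 CPM in WT (SD, n = 5 each). None of these 3 genes passed the test, with edgeR adjusted p of 0.931, 0.980 and 0.931. The survival genes Mcl1, Bcl2 and Bcl2l11 gave log2 fold changes of -0.30 ± 0.36, -0.84 ± 1.67 and 0.23 ± 0.55. Cytosolic ribosomal protein genes had 30 of 82 above 0 in all 10 libraries and 80 of 82 without WT mouse 3, so their direction rests on that library.

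**Figure D5:**
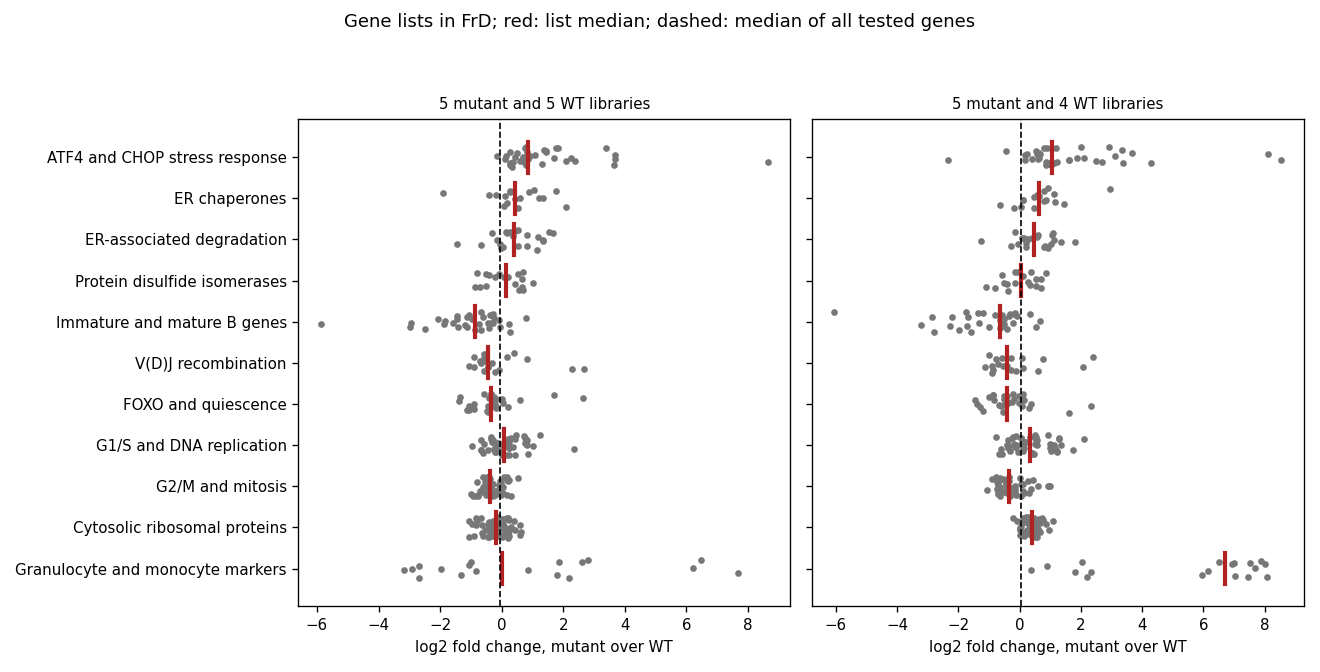
Log2 fold change (mutant over WT) of each tested member of 11 gene lists in FrD, with the list median in red and the median of all tested genes dashed, all 10 libraries at left and without WT mouse 3 at right. The ATF4 and CHOP list lay to the right (medians 0.86 and 1.07) and immature B genes to the left (-0.85 and -0.65), and the granulocyte and monocyte median moved to 6.72 without WT mouse 3, against 0.01 with it.

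Metabolic gene lists held no called member in either fit. Of 22 glycolysis genes, 17 lay above 0 in all 10 libraries (median log2 fold change 0.43) and 20 without WT mouse 3 (median 1.03). Cholesterol and fatty acid synthesis genes had 27 of 35 above 0 (median 0.34), and 23 of 35 without WT mouse 3 (median 0.20). Oxidative phosphorylation genes had 15 of 59 above 0 (median -0.19), and 29 of 59 without WT mouse 3 (median -0.01). The granulocyte and monocyte sums differed between the groups here too, and their part in these medians was not tested. Genes of the FOXO and quiescence list had 6 of 30 above 0 (median -0.36), and 8 of 30 without WT mouse 3 (median -0.40), when Blnk was the 1 member that fell.

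Slc39a7, the gene of the changed transporter (ENSMUSG00000024327, GRCm38 chromosome 17, 34028269 to 34031682, minus strand), had 8.55, 54.3, 59.2, 126 and 63.6 CPM in mutants, against 49.1, 25.1, 291, 28.5 and 29.7 CPM in WT. Mutant mouse 4 was lowest and WT mouse 3 highest, and the groups overlapped. The log2 fold change was -0.44 ± 0.78 in all 10 libraries and 0.91 ± 0.56 without WT mouse 3, with edgeR adjusted p of 0.998 and 0.572. Of 14 tested zinc transporter genes, 6 were above 0 with a median of -0.09.

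The genotype effect in FrD was also set against that of the next stage. Over FrD and FrE libraries together, no gene differed in its effect (0.0% of 10986 tested, 794 at an unadjusted p under 0.05), nor between FrD and FrC (0.0% of 11280, 1288 at an unadjusted p under 0.05). No other tool was run for these differences. Leaving out the low-complexity libraries of both fractions, 48 genes differed between FrD and FrE (0.43% of 11157). That fit does not use the pairing of FrD and FrE by mouse, and with the mouse as a replicate block, an alternative added after seeing the data, 6 of the 48 were called, while all 48 kept their sign. Both fractions remained for 4 mutant and 3 WT mice. Without the block the 48 included Rag2, Il2ra and Il7r, whose differences were -5.48 ± 0.87, -3.53 ± 0.47 and -3.38 ± 0.40 log2 units (edgeR adjusted p = 0.00562, 0.000454 and 0.000113, and 0.158, 0.0328 and 0.0328 with the block). In FrE itself Rag2 averaged 140 ± 48.2 CPM in mutant FrE and 5.69 ± 4.64 CPM in WT FrE, and Il7r 296 ± 35.0 CPM in mutant FrE and 36.3 ± 14.6 CPM in WT FrE (SD, n = 4 each, CPM without TMM scaling). Arl5c, Dnajc7, Peli1, Rhoh, Stambpl1, Stk3 and Tcf12 were lower in mutant FrD yet had higher means in mutant FrE than in WT FrE. Their differences ran from -3.94 for Stk3 to -1.63 for Rhoh, and with the block Arl5c and Stambpl1 were still called (edgeR adjusted p = 0.0390 and 0.0328), and the other 5 were not (0.0890 to 0.297). Creld2 and Sdf2l1 differed the other way, by 2.71 ± 0.53 and 1.69 ± 0.38 log2 units (edgeR adjusted p = 0.0214 and 0.0481, and 0.624 and 0.664 with the block). In FrE both were lower on average in mutants than in WT, at 81.2 ± 26.7 and 202.5 ± 42.7 CPM in mutants and 237 ± 107 and 233 ± 92.0 CPM in WT (SD, n = 4 each, CPM without TMM scaling).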

How the data were processed

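RNA was counted in FrD libraries of 5 mutant and 5 WT chimeras, 100 cells each, and the labels' titles gave genotype, mouse and fraction. The authors deposited raw counts per gene, a whole number for each of 21958 genes and 92 ERCC transcripts. HISAT2 2.1.0, featureCounts 1.4.6 (Subread), DESeq2 and build mm10 are named, per the submitters' processing notes. No annotation release, strand setting or read filter is given in the sources used here. Overlapping, antisense and near-identical genes therefore cannot be told apart. Gene identifiers were matched to GENCODE M21 (GRCm38), 21728 of them, and 230 were not. Reads were amplified without molecular identifiers, so bounds cover counting error only. Total counts per library set the precision.

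Genes were tested with edgeR 4.0.16 in R 4.3.3 (quasi-likelihood, robust, TMM, filterByExpr with minimum count 10 and minimum total 15, two-sided, Benjamini-Hochberg adjusted over all tested genes, called under 0.05). SE is the absolute log2 fold change over the square root of F. Low complexity means that over 15% of detected genes have 1 to 9 counts. DESeq2 1.42.0, limma 3.58.1 voom, other scalings, filters, terms and leave-one-out fits were alternatives. ERCC scaling moved the median log2 fold change to 0.39, and to 0.67 without WT mouse 3. On simulated data over 10043 genes, the all-library fit recovered 22% of changes of 2 and 57% of changes of 4 log2 units. Library measures were compared by exact permutation over 252 arrangements. No FrD library pair was identical, and the highest correlation was 0.952. Genotypes share no mouse, so nothing pairs them. The mouse number ties libraries of different fractions, per the labels' titles, so pairing across fractions rests on the animal. Deviations from group means of same-mouse libraries correlated by -0.17 to 0.21, with a median of 0.04. Figures were drawn with matplotlib.

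The comparison, the gene lists and the tests were chosen with earlier results of these data known. Named genes were those called in either fit (at most 15 of lowest p each way), the 12 of lowest p each way, the 4 of lowest p of each of 41 lists, and a fixed set, of which the text gives a selection made after values were seen. Lists are described by counts and medians only, and 1 B-lineage gene is not reported here.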

Additional observations from a re-analysis of the deposited data

Results flagged for a closer look

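Single FrD libraries stood apart from the others of their group in 31 of 132 groups of 5 values looked at. The limit used flags about 1 in 20 groups of independent, normally distributed values, which CPM from the same libraries are not. The library of WT mouse 3 was far from the other WT libraries in 19 of the 31. Genes called only without that library were among those looked at, so its share was partly set by that choice. Beside its 26.7% of detected genes with 1 to 9 counts, its granulocyte and monocyte markers summed to 116021 CPM and its erythroid markers to 48344 CPM. It was high for Slc39a7 (291 CPM), Spn (144 CPM), Rpn1 (875 CPM), Asns (139 CPM), Sars (99.9 CPM), Csf3r (28.2 CPM), Plxna1 (0.896 CPM), Rapgef1 (30.7 CPM), Flna (859 CPM), Xdh (14.6 CPM), Mcm3 (284 CPM), Mki67 (2916 CPM), Mcl1 (489.7 CPM) and Lars2, a mitochondrial leucyl-tRNA synthetase gene (32093 CPM). It was low for Rag2 (14.6 CPM) and Sdf2l1 (2.91 CPM). Among other WT libraries, mouse 7 was high for Dnajc7 (3109 CPM) and, by a single count, for Trib3 (0.0443 CPM), mouse 2 for Myc (15.2 CPM) and mouse 6 for Bcl2 (13.9 CPM).

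Among mutant libraries, mouse 8 was high for the basophil, mast and eosinophil markers (7168 CPM in sum), Bst1 (49.4 CPM) and Ms4a1 (19.3 CPM). Mouse 5 was high for Atf4 (679 CPM), Mki67 (919 CPM) and Lars2 (12614 CPM), mouse 4 for Cd38 (484 CPM), and mouse 10 was low for Ikzf3 (58.8 CPM).

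The genotype effect differed between FrD and FrE, without low-complexity libraries, for 12 of the named genes (edgeR quasi-likelihood test of the difference). Of all 11157 tested genes 48 did (0.43%), and with all libraries no gene was called. Many named genes were chosen for a low p in FrD, which is a part of this difference, so the 12 are no separate evidence. FrD minus FrE was -1.63 log2 units for Rhoh, -2.41 for Arl5c, -2.28 for Peli1, -2.61 for Dnajc7, -2.74 for Stambpl1, -2.39 for Tcf12, -3.94 for Stk3, -3.53 for Il2ra, -5.48 for Rag2 and -3.38 for Il7r. It was 1.69 for Sdf2l1 and 2.71 for Creld2. With the mouse as a replicate block, 4 of these 12 were still called (Il2ra, Il7r, Stambpl1 and Arl5c).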

How the results depend on the processing

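The count of 1 called gene in FrD was 0 with ERCC scaling, with the second index as a term and with mouse number (1 to 5 or 6 to 10) as a term. It was 286 with DESeq2, 11 with voom, 11 with all 40 libraries in one fit and 39 without low-complexity libraries. Leaving out each library gave 0 to 39 calls. Without WT mouse 3, the 11 higher and 28 lower genes were 484 and 218 with DESeq2, and 6 and 0 with ERCC scaling. A limit of 10% left 3 mutant libraries and 1 WT library, which is assumed to vary like the mutants, and its 137 higher and 17 lower genes are no test of the limit. On leaving out each further library they were 0 to 47 higher and 3 to 84 lower. The difference between FrD and FrE, 0 calls, was 48 without low-complexity libraries, 6 when the replicate block (mouse) was added to that fit after seeing the data, and 0 to 9 on leaving out each library, 9 being the value without WT mouse 3. With the replicate block (mouse), which pairs fractions of 1 animal, the difference over all libraries stayed at 0 calls, and WT FrE against WT FrC gave 431 calls, against 693, and 1626 without low-complexity libraries. The causes of these shifts were not tested.

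Over the alternatives of the named genes, Tnfrsf13c kept its direction, and its log2 fold change ran from -2.61 to -2.08. Signs turned as follows, from a fitted value near or below its error. With ERCC scaling they turned for Rag2 (0.092), Il7r (0.51) and Foxo1 (0.15), and relative to the median gene, an alternative chosen after seeing the data, for Il7r (0.12), Asns (-0.27) and Flna (-0.23). With RLE size factors they turned for Asns (-0.13) and Flna (-0.021), and likewise with DESeq2 (-0.13 and -0.022). With voom they turned for Slc39a7 (0.49), Rpn1 (1.10), Lars2 (1.66), Mki67 (0.18) and Spn (0.19). With the second index as a term they turned for Slc39a7 (0.13), Rpn1 (0.49) and Lars2 (0.62), and with mouse number as a term for Rpn1 (0.45) and Lars2 (0.97). Without low-complexity libraries they turned for Slc39a7 (0.91), Rpn1 (1.37), Lars2 (3.19), Mki67 (0.59), Mcl1 (0.080) and Spn (0.20). Leaving out each library, the ranges that crossed 0 were -0.86 to 0.91 for Slc39a7, -0.42 to 0.029 for Il7r, -1.24 to 0.20 for Spn, -0.34 to 1.37 for Rpn1, -0.26 to 3.36 for Asns, -0.22 to 2.01 for Flna, -0.84 to 0.59 for Mki67, -1.66 to 1.02 for Bcl2, -0.51 to 0.080 for Mcl1 and -1.93 to 3.19 for Lars2. Genes under about 1 CPM rest on few counts, and 5 libraries a group of 100 cells limit what passes the test.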
